A study of Mus musculus with 24 samples.

Results

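The comparison described here set the livers of mice given Roux-en-Y gastric bypass (RYGB) against the livers of mice held at the weight of the RYGB group by calorie restriction (WM), so that the groups differed in how the weight was reached. It used 16 of the 24 libraries of the study, 8 RYGB and 8 WM, chosen by their labelled group and no measured value, and described all 13121 genes with enough counts to be tested. RYGB is a weight-loss operation that leaves a small stomach pouch and joins it to the small intestine further down, so that food bypasses most of the stomach and the duodenum. The remaining 8 libraries came from mice given a sham operation (Sham), which were not weight-matched. They entered the fit and are given as levels only. All livers were collected 20 weeks after surgery. The study's title speaks of obese mice. The sources used here do not state strain, sex, age, diet, feeding schedule or hour of collection, nor whether the WM mice had an operation. Libraries carry the animal number of their label, such as RYGB 18. The labels do not say outright that each library is a separate animal, and p-values measure the spread between these libraries.

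The liver adjusts its transcripts to what the gut delivers and to the hour of feeding. Bile salts returning from the intestine act on the nuclear receptor FXR, sterol levels act on the SREBP factors that drive cholesterol synthesis, and body iron acts through bone morphogenetic protein (BMP) signalling on hepcidin, the hormone that limits iron uptake from the gut. The duodenum, where most dietary iron is absorbed, is the segment that gastric bypass excludes.

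Levels are given as CPM, read counts relative to the size of the library, with sizes scaled by TMM, from sequencing of the 3′ ends of messenger RNA. For each group of 8 libraries the lowest, median and highest level are given. Log2 fold changes are RYGB minus WM, ± standard error, and adjusted p-values come from edgeR's quasi-likelihood test with Benjamini-Hochberg adjustment over the 13121 genes. A gene is said to have risen or fallen, or to have been higher or lower in RYGB as a call, at an adjusted p under 0.05. These words compare RYGB with WM only and do not say which of these groups departed from Sham. In bulk liver, fewer cells of a type and less RNA per cell cannot be told apart.

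Library totals were 14002193 to 19958019 counts in RYGB and 14208021 to 22766612 in WM. Hepatocyte transcripts were abundant in all 16 libraries, with albumin (Alb) at 34900 to 101000 CPM. Transcripts of pancreatic acinar cells, summed over 22 acinar genes that were not among the tested genes, reached 3400 CPM in RYGB 18 and 3360 CPM in RYGB 19 and were at most 6.5 CPM in every WM library. Interferon response genes summed to 7290 CPM in WM 13 and to at most 1560 CPM in the other WM libraries. None of 11 measures of the libraries, among them total counts, genes detected and the shares of mitochondrial and ribosomal protein counts, differed between the groups after adjustment (two-sided exact permutation test, lowest adjusted p = 0.416, for the adipocyte sum, with unadjusted p = 0.0378).

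At matched weight 196 genes passed, 1.49% of those tested, of which 139 were higher in RYGB (1.06%) and 57 lower (0.434%). Of these, 92 of the higher and 39 of the lower genes differed by more than 1 on the log2 scale. For 47 genes (0.358%) the 8 RYGB libraries and the 8 WM libraries did not overlap. The median log2 fold change of all tested genes was -0.02. Counts of called genes in the gene lists below are to be read beside these shares of all tested genes. When each of the 16 libraries was left out in turn, 115 of the 196 genes passed every time, 93 of the 139 higher and 22 of the 57 lower. The number of lower genes ranged from 29 without RYGB 10 to 77 without WM 25, and was 30 without WM 27, 36 without WM 1 and 36 without RYGB 15. The number of higher genes ranged from 107 to 180 for the same omissions, and no called gene changed direction. Without RYGB 18 and RYGB 19 together 134 genes were higher and 66 lower, of which 116 and 39 were among the 139 and 57. Of 92 called genes examined singly, 48 passed under every one of 27 alternative analyses, and 29 lost their call when only the RYGB and WM libraries were fitted. An adjusted p under 0.01 in the same fit is 1 of the 27, and all 44 others lost their call there. The 48 are therefore the genes under 0.01 in the main fit.

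**Figure D1:**
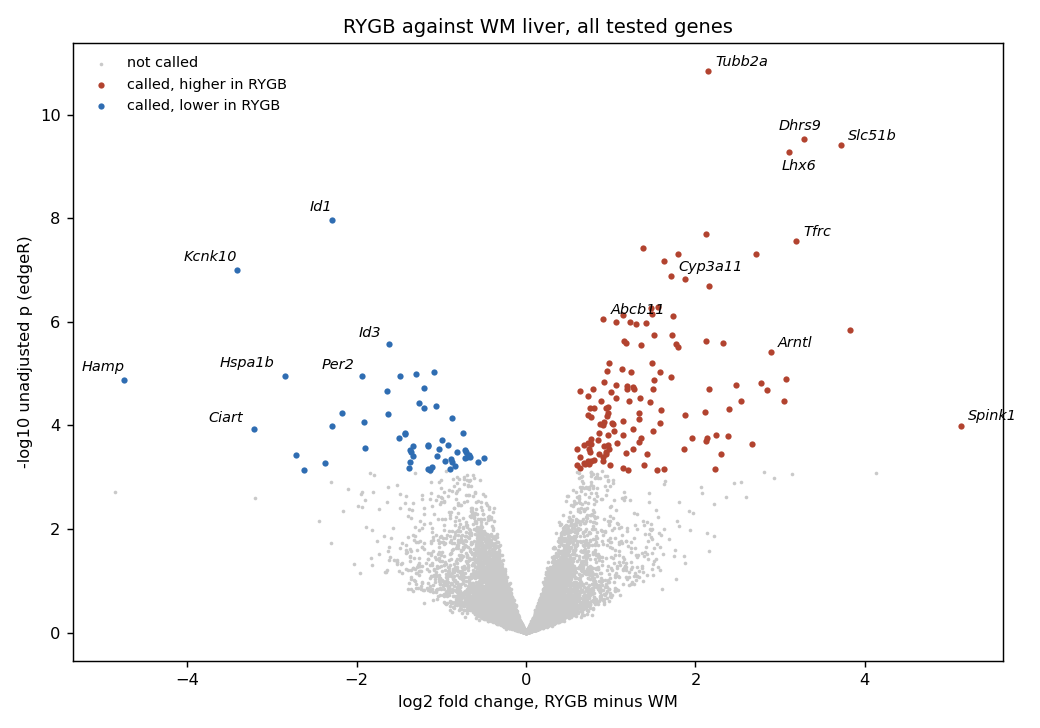
Log2 fold change of RYGB minus WM (x axis) against -log10 of the unadjusted edgeR p (y axis) for 13121 tested genes, 1 point a gene. Red points are the 139 genes called higher in RYGB and blue points the 57 called lower, and the farthest lower call is Hamp at -4.74.

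Iron genes held the largest fall. Hepcidin (Hamp) was lower in every RYGB library than in any WM library, transferrin receptor 1 (Tfrc), which takes transferrin-bound iron into cells, was higher in 7 of 8, and the BMP target genes Id1, Id3 and Atoh8 fell with Hamp. Of 35 tested genes of iron handling and hepcidin control, 3 rose and 4 fell (20.0% called, against 1.49% of all tested genes), and the list's median log2 fold change was -0.21.

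The promoter of Hamp is shown because hepcidin transcription is known to answer BMP signalling through a GGCGCC element. It is the 250 bases before the RefSeq start (GRCm38.p6, chr7:30944030-30944279, minus strand), 5′ to 3′, with GGCGCC in capitals, first base 109 bases before the start. These letters, searched on both strands after this promoter had been looked at, occur in 9.59% of 32851 RefSeq promoter windows of this length. Of the 3 called-lower iron genes with an entry in the RefSeq promoter table, only Hamp held them. Id3 and Atoh8 did not, and Id1 has no entry.
Hamp: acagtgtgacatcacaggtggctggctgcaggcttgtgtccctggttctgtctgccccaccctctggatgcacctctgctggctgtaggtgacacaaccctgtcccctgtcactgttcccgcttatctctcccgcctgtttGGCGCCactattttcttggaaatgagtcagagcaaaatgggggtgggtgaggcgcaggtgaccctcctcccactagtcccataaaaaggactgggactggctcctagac

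Hamp stood at 0.197, 1.12 and 111 CPM (lowest, median, highest) in RYGB and at 123, 560 and 1440 CPM in WM. The groups did not overlap, and the log2 fold change was -4.74 ± 0.91 (adjusted p = 0.00332), with 310 ± 195 CPM in Sham (mean ± SD, n = 8). Within RYGB the libraries spread widely. RYGB 10, 18, 19, 22 and 28 held 0.197 to 1.27 CPM, RYGB 11 held 31.9, RYGB 15 held 34.6 and RYGB 29 held 111 CPM. Without RYGB 29 the log2 fold change of Hamp was -5.92 (adjusted p = 0.000344), and over all 27 alternatives it ranged from -7.04 under limma-trend to -4.02 without RYGB 18, RYGB 19, Sham 17 and WM 25. Tfrc ran in the other direction across the same libraries, with 93.0 to 187 CPM in the 5 with the least Hamp, 73.1 in RYGB 11, 40.7 in RYGB 15 and 8.78 CPM in RYGB 29. This order is a description of 8 libraries and was not tested.

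Tfrc had a median of 95.3 CPM in RYGB and stood at 4.78, 11.7 and 19.3 CPM in WM, a log2 fold change of 3.19 ± 0.42 (adjusted p = 5.19e-05). RYGB 29 was the 1 RYGB library inside the WM range. Tfrc was also the 1 called member of the 13 tested erythrocyte markers. The 14 erythrocyte markers with counts summed to 3180 to 5960 CPM in RYGB and 1680 to 10100 CPM in WM. None of 20 genes of heme synthesis and globins passed in edgeR (0 at an unadjusted p under 0.05) or DESeq2, Alas2, the erythroid enzyme that starts heme synthesis, having a log2 fold change of -0.54 (adjusted p = 0.528).

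The BMP targets were more even within RYGB than Hamp was. Id1, an inhibitor of basic helix-loop-helix factors, stood at 3.39, 4.61 and 6.85 CPM in RYGB and 15.3, 20.9 and 39.5 CPM in WM, with no overlap (log2 fold change -2.29 ± 0.29, adjusted p = 2.87e-05). Its relative Id3 stood at 14.7, 36.8 and 60.1 CPM against 48.6, 122 and 150 CPM (log2 fold change -1.62 ± 0.28, adjusted p = 0.00103). Atoh8, a helix-loop-helix factor that acts on hepcidin expression, stood at 1.24, 3.19 and 10.1 CPM against 4.64, 10.8 and 45.3 CPM (log2 fold change -1.91 ± 0.42, adjusted p = 0.0115, and 0.0637 under limma-voom with quality weights). Of these, Id3 lay below all WM libraries in 6 RYGB libraries and Atoh8 in 6.

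The inhibitory SMADs, which BMP signalling also induces, did not pass in edgeR with all libraries. Smad6 had a log2 fold change of -0.80 ± 0.23 (adjusted p = 0.0798) and Smad7 of -0.81 ± 0.30 (adjusted p = 0.26). Smad6 passed without WM 25 or without RYGB 22 (adjusted p = 0.0393 and 0.0143), in DESeq2 (0.0319) and under limma-voom with quality weights (0.0154). Smad7 passed under limma-voom (-1.23, adjusted p = 0.0229).

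Hemojuvelin (Hfe2), the BMP co-receptor of hepatocytes, rose while the target genes were lower, at 77.9, 126 and 147 CPM in RYGB and 38.4, 62.1 and 101 CPM in WM (log2 fold change 0.95 ± 0.18, adjusted p = 0.00281). In RYGB, 6 of the 8 levels were above the highest WM level. Slc11a2, the divalent metal transporter DMT1, rose by 0.73 ± 0.19 on the log2 scale (adjusted p = 0.0373), a call that held only when WM 9, WM 25, RYGB 11, RYGB 19, RYGB 22 or RYGB 29 was the library left out (adjusted p = 0.0547 to 0.101 without any 1 of the others). Hamp2, a close copy of Hamp whose 3′ reads may be split or shared with it, ranged from 0.117 to 228 CPM in RYGB and 6.71 to 483 CPM in WM and did not pass (log2 fold change -2.03 ± 0.98, adjusted p = 0.443). RYGB 29, which held the most Hamp, held the 228 CPM, and without it Hamp2 passed at -4.27 (adjusted p = 0.0138).

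**Figure D2:**
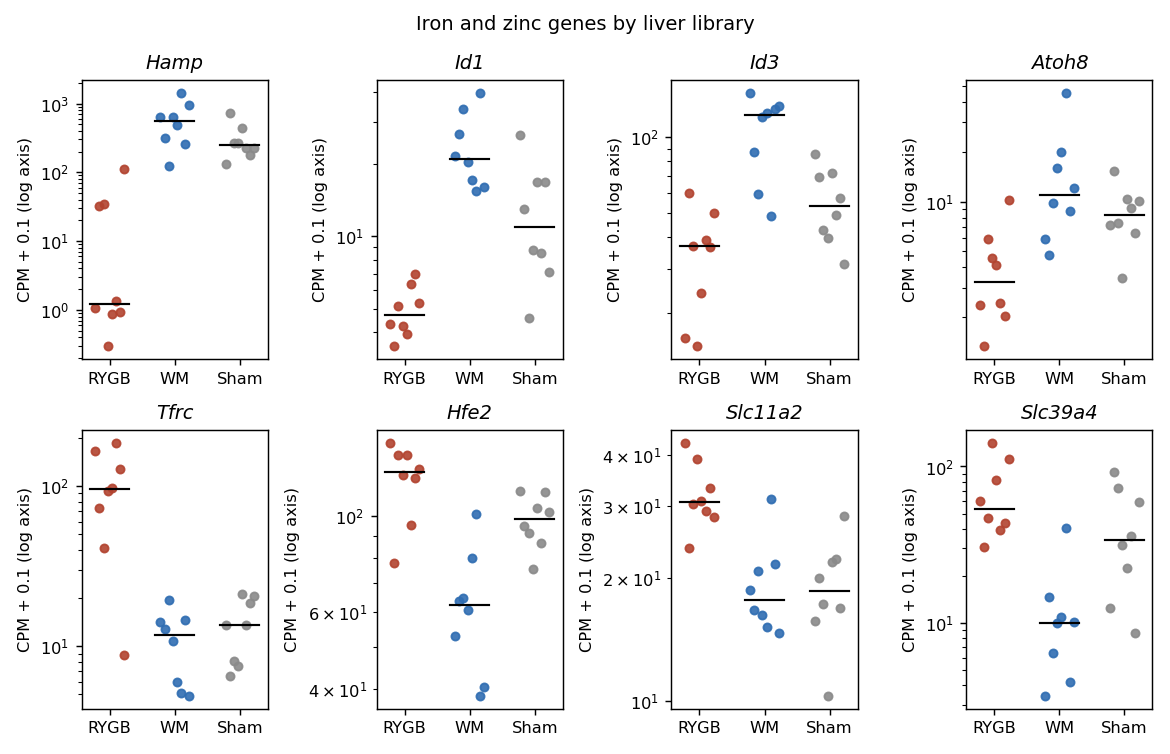
Levels of 7 iron genes and the zinc importer Slc39a4 in each liver library, as CPM plus 0.1 on log axes that do not start at 0. Points are libraries, 8 a group, and black lines are medians. All RYGB points of Hamp and Id1 lie below all WM points, and 1 RYGB point of Tfrc, RYGB 29 at 8.78 CPM, lies among the WM points.

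Another metal carrier, zinc importer Slc39a4 (ZIP4), whose loss in people causes zinc deficiency, rose. It stood at 30.6, 53.3 and 142 CPM in RYGB and 3.32, 9.97 and 40.3 CPM in WM (log2 fold change 2.48 ± 0.48, adjusted p = 0.00389), with 41.9 ± 30.0 CPM in Sham. In RYGB, 6 libraries exceeded every WM library. Slc30a10, a manganese exporter of the zinc transporter family, rose by 0.87 ± 0.19 on the log2 scale (adjusted p = 0.0118, and 0.054 with only RYGB and WM libraries fitted). These were the 2 called members of 21 tested zinc transporters and metallothioneins, none of which fell. The metallothioneins Mt1 and Mt2, which bind zinc and copper, varied widely within RYGB (53.1 to 333 CPM and 6.04 to 81.3 CPM) and did not pass (adjusted p = 0.321 and 0.274).

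Genes of bile salt transport separated the groups. Of 25 tested genes of bile acid transport and FXR signalling, 5 rose and 1 fell (24.0% called), with a list median of 0.25. None of 17 genes of bile acid synthesis passed, with a list median of 0.15, 6 at an unadjusted p under 0.05 in edgeR, 0 passing in DESeq2 and 3 in limma-voom with quality weights, all 3 higher in RYGB.

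Slc51b, a subunit of the OST exporter that moves bile salts out across the basolateral membrane and a known FXR target, stood at 2.91, 4.29 and 9.09 CPM in RYGB and 0.146, 0.348 and 0.623 CPM in WM. Every RYGB library exceeded every WM library (log2 fold change 3.72 ± 0.40, adjusted p = 1.7e-06), on 612 counts over the RYGB libraries and 45 over the WM libraries. Abcb11, the bile salt export pump of the canaliculus, stood at 355, 452 and 550 CPM against 184, 236 and 315 CPM, again without overlap (log2 fold change 0.91 ± 0.15, adjusted p = 0.000551). Slc10a2, the sodium-dependent bile salt transporter known from ileum and bile ducts, stood at 39.9, 47.9 and 80.1 CPM against 9.23, 19.3 and 36.0 CPM, also without overlap (log2 fold change 1.47 ± 0.23, adjusted p = 0.00042).

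Cyp3a11, a P450 that hydroxylates drugs and bile acids, stood at 322, 492 and 761 CPM in RYGB and 47.7, 143 and 293 CPM in WM, with no overlap (log2 fold change 1.71 ± 0.25, adjusted p = 0.000131). Both levels were below the 1250 ± 219 CPM of Sham. The organic anion transporter Slco1a4 rose by 0.997 ± 0.26 on the log2 scale (adjusted p = 0.0423), but passed only when WM 7, WM 9, RYGB 11, RYGB 15, RYGB 22 or RYGB 29 was the library left out (adjusted p = 0.0519 to 0.109 otherwise). Abcg5, which with its partner exports sterols into bile, fell by 0.71 ± 0.17 on the log2 scale (adjusted p = 0.0285), and its call was lost without any 1 of WM 9, WM 27, RYGB 10, RYGB 11, RYGB 15 or RYGB 22 (adjusted p = 0.0557 to 0.0732). Abcg5 was the 1 called gene of 33 in lipoprotein and sterol export.

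Of the enzymes that make bile acids, Cyp7a1, the rate-limiting one, stood at 12.4, 46.7 and 129 CPM in RYGB and 14.6, 50.3 and 74.6 CPM in WM (log2 fold change 0.15 ± 0.43, adjusted p = 0.958). Cyp8b1, the 12-alpha-hydroxylase of cholic acid synthesis, stood at 179, 491 and 883 CPM in RYGB and 91.0, 180 and 1130 CPM in WM (log2 fold change 0.77 ± 0.42, adjusted p = 0.516). The 1130 CPM belonged to WM 25, and without that library Cyp8b1 passed as higher in RYGB, at 1.56 on the log2 scale (adjusted p = 0.00631), as it did under limma-voom with quality weights (1.43, adjusted p = 0.0131).

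Genes at several steps of sterol synthesis rose in RYGB. Among 28 tested genes that make or take up cholesterol, 5 rose and 0 fell (17.9% called), with 23 of 28 above 0 and a list median of 0.51. Hmgcs1, the synthase at the entry of the mevalonate pathway, stood at 251, 497 and 856 CPM in RYGB and 67.1, 139 and 254 CPM in WM (log2 fold change 1.88 ± 0.27, adjusted p = 0.000138). The groups met only at their edges, with 7 RYGB libraries above all WM libraries. Lss, which closes squalene epoxide into lanosterol, stood at 16.1, 27.6 and 39.7 CPM against 6.78, 10.4 and 15.1 CPM, without overlap (log2 fold change 1.42 ± 0.23, adjusted p = 0.000577).

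Msmo1, a sterol C4 oxidase, rose by 1.02 ± 0.23 (adjusted p = 0.0118), Sc5d, a sterol desaturase, by 0.76 ± 0.18 (adjusted p = 0.0198) and Cyp51, the lanosterol demethylase, by 0.69 ± 0.18 (adjusted p = 0.0386), all on the log2 scale. The calls differed in firmness. That of Msmo1 held with each library left out, that of Sc5d was lost without WM 1 or RYGB 10 (adjusted p = 0.0521 and 0.0612), and that of Cyp51 held only when WM 7, WM 9, WM 25, RYGB 18, RYGB 19 or RYGB 22 was left out (adjusted p = 0.0501 to 0.1 otherwise). Sqle, the squalene epoxidase, had a log2 fold change of 0.84 ± 0.24 (adjusted p = 0.078).

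Genes of fatty acid elongation and acetate activation rose too. Of 32 tested genes of fatty acid and triglyceride synthesis, 4 rose and 0 fell (12.5% called), with a list median of 0.19. Insig2, which retains the SREBP machinery in the endoplasmic reticulum, stood at 220, 366 and 564 CPM in RYGB and 106, 154 and 217 CPM in WM, without overlap (log2 fold change 1.22 ± 0.20, adjusted p = 0.000568). Elovl5, an elongase of polyunsaturated fatty acids, stood at 769, 985 and 1910 CPM against 161, 443 and 717 CPM, also without overlap (log2 fold change 1.28 ± 0.25, adjusted p = 0.0041).

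Elovl3, an elongase of saturated chains, stood at 157, 309 and 421 CPM against 60.6, 98.7 and 206 CPM (log2 fold change 1.36 ± 0.24, adjusted p = 0.00107). Acss2, which makes acetyl-CoA from acetate, rose by 0.97 ± 0.22 on the log2 scale (adjusted p = 0.0175). Its call was lost without RYGB 10 (adjusted p = 0.0521) and without RYGB 18 and RYGB 19 together (adjusted p = 0.0718). Elovl3 overlapped WM in 1 RYGB library. None of 34 genes of fatty acid oxidation and ketogenesis passed, with a list median of 0.04, 7 at an unadjusted p under 0.05 in edgeR and 3 passing in DESeq2.

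In the list for fatty acid uptake and lipid droplets, 5 of 28 tested genes rose and 0 fell, 20 were above 0 and 8 had an unadjusted p under 0.05. The list median was 0.21, and 3 rose without RYGB 18 and RYGB 19. Cd36, a fatty acid uptake receptor, stood at 54.6, 63.7 and 80.9 CPM in RYGB and 14.6, 27.4 and 62.0 CPM in WM (log2 fold change 1.07 ± 0.21, adjusted p = 0.00542), beside 177 ± 26.9 CPM in Sham. Plin5, which couples lipid droplets to mitochondria, stood at 71.3, 81.0 and 148 CPM against 28.6, 43.1 and 77.9 CPM (log2 fold change 0.96 ± 0.21, adjusted p = 0.00908). All WM libraries were exceeded by 4 RYGB libraries for Cd36 and by 6 for Plin5. Both also count among the 3 risen genes of 37 PPAR alpha targets, with Acot2, a mitochondrial thioesterase, at 1.15 ± 0.30 (adjusted p = 0.0473), whose call held only when WM 9, RYGB 11 or RYGB 22 was left out (adjusted p = 0.0567 to 0.146 otherwise).

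The other 3 risen members, Lpl, Fabp4 and Cidea, are adipocyte markers as well. Of 11 tested adipocyte markers 4 rose and 0 fell, these 3 and Cfd, the serine protease adipsin. Cfd stood at 0.314, 31.3 and 70.4 CPM in RYGB and 0.0692, 5.59 and 11.4 CPM in WM (log2 fold change 2.67 ± 0.64, adjusted p = 0.023). The call was lost without RYGB 10 (adjusted p = 0.0612) and with only RYGB and WM libraries fitted (adjusted p = 0.0765). It was also lost under limma-voom with quality weights (adjusted p = 0.373) and under limma-trend (adjusted p = 0.109). The 15 adipocyte markers in the table summed to 1490 to 5170 CPM in RYGB and 1200 to 4440 CPM in WM. Other members than the 4 risen ones made up most of these sums. In RYGB, Fabp4 was at most 98.2 CPM, Lpl 97.5, Cfd 70.4 and Cidea 10.5, and in WM none of the 4 exceeded 34.0 CPM. Of the defining adipocyte transcripts, adiponectin (Adipoq) was at 0 to 3.97 CPM in RYGB and 0 to 8.84 CPM in WM (adjusted p = 0.897), and perilipin 1 (Plin1), with too few counts to be tested, at 0 to 1.18 CPM and 0 to 1.6 CPM. The part of adipocyte transcripts in the lipid genes was not tested.

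The smaller adipocyte calls were fragile. Lpl, lipoprotein lipase, rose by 1.18 ± 0.29 on the log2 scale (adjusted p = 0.0293) and lost its call without any 1 of WM 1, WM 27, WM 30, RYGB 15, RYGB 22 or RYGB 28 (adjusted p = 0.0525 to 0.083). Fabp4, a fatty acid carrier of fat cells, macrophages and capillaries, rose by 1.63 ± 0.43 (adjusted p = 0.048), with a call that held only when WM 7, WM 13, RYGB 15 or RYGB 29 was left out (adjusted p = 0.0521 to 0.169 otherwise). Cidea, a lipid droplet fusion protein, rose by 2.31 ± 0.57 (adjusted p = 0.0301) and lost its call without any 1 of WM 9, WM 20, WM 27, WM 30, RYGB 10, RYGB 18, RYGB 19 or RYGB 29 (adjusted p = 0.0522 to 0.0787) and under limma-voom with quality weights (adjusted p = 0.356). Its relative Cidec, at 0.189 to 6.78 CPM in RYGB and 0.448 to 3.61 CPM in WM, did not pass (adjusted p = 0.829), and both groups lay below the 59.8 ± 28.1 CPM of Sham.

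**Figure D3:**
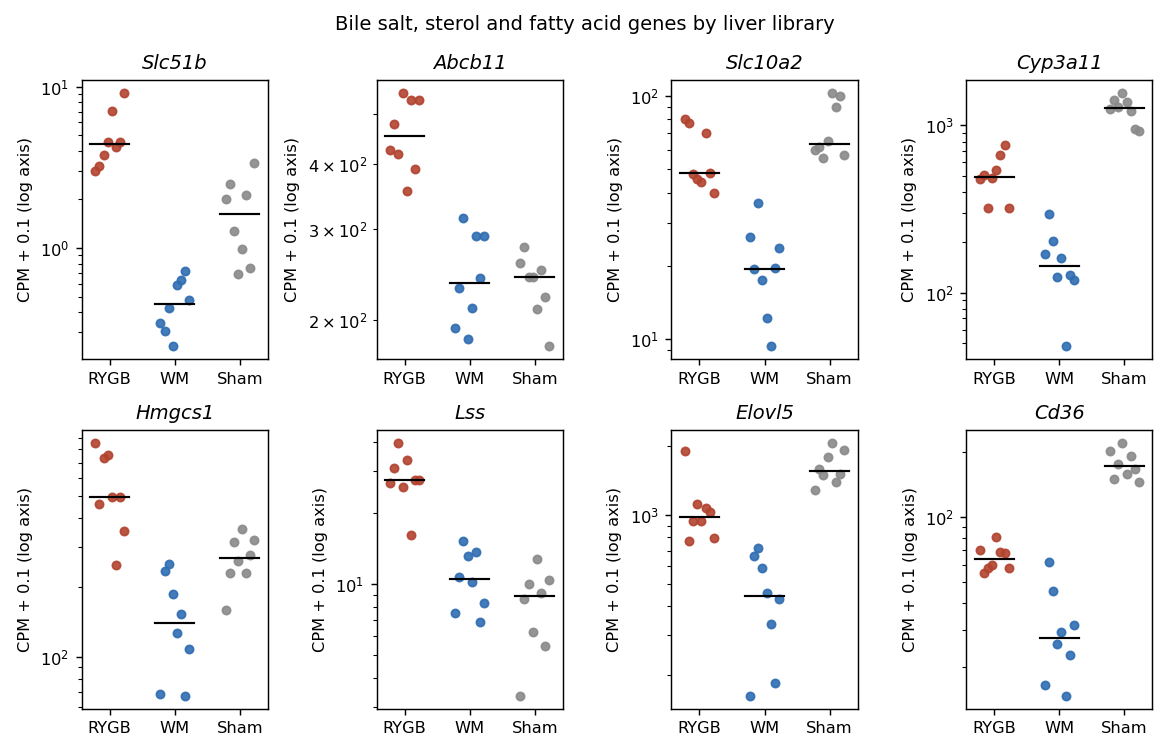
Levels of 3 bile salt transporters, Cyp3a11, 2 sterol synthesis genes, Elovl5 and Cd36 in each liver library, as CPM plus 0.1 on log axes that do not start at 0. Points are libraries, 8 a group, and black lines are medians. RYGB points lie above all WM points for Slc51b, Abcb11, Slc10a2, Cyp3a11, Lss and Elovl5.

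Drug-metabolizing P450 genes rose together with Cyp3a11. Of 41 tested targets of the nuclear receptors CAR and PXR, 6 rose and 0 fell (14.6% called), 35 of 41 were above 0 and the list median was 0.41. Cyp2c29, an epoxygenase, stood at 865, 1010 and 1350 CPM in RYGB and 303, 497 and 592 CPM in WM, without overlap (log2 fold change 1.15 ± 0.18, adjusted p = 0.000501). Cyp2c55 stood at 1.32, 1.9 and 3.45 CPM against 0.151, 0.355 and 1.04 CPM, without overlap (log2 fold change 2.32 ± 0.40, adjusted p = 0.00103).

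The remaining 3 were Cyp3a59 (1.80 ± 0.31, adjusted p = 0.00114), Cyp2c38 (1.5 ± 0.34, adjusted p = 0.0154) and the aldehyde dehydrogenase Aldh1a7 (0.80 ± 0.17, adjusted p = 0.00723). The call of Cyp2c38 was lost without RYGB 18 and RYGB 19 together (adjusted p = 0.0799). Genes of the Cyp2c and Cyp3a families have near-identical copies, and the sources used here do not state how reads matching several copies were counted. Cyp2b10, the classic CAR target, was at or near 0 in both groups, at most 0.512 CPM in RYGB and 0.149 CPM in WM (adjusted p = 0.883), beside 4.89 ± 4.13 CPM in Sham.

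Of 22 tested female-biased liver genes, Cyp2c69, Cyp2c40 and Cd36 rose and none fell (13.6% called), with a list median of 0.76 and 11 at an unadjusted p under 0.05. Of 29 male-biased genes, Elovl3 rose and none fell (3.45% called), with a list median of -0.51 and 12 at an unadjusted p under 0.05. Cyp2c69 stood at 2.32, 4.63 and 9.3 CPM in RYGB and 0, 0.658 and 3.83 CPM in WM (log2 fold change 2.24 ± 0.51, adjusted p = 0.0175) and lost its call without RYGB 10 or RYGB 15 (adjusted p = 0.0511 to 0.0528). Its value was 3.0 without WM 9. Cyp2c40 stood at 0.954, 7.89 and 15.2 CPM against 0.81, 1.41 and 3.63 CPM (log2 fold change 2.13 ± 0.50, adjusted p = 0.0205) and lost it without WM 27 or RYGB 10 (adjusted p = 0.0511 to 0.0683). Both are close copies of other Cyp2c genes. Hsd3b5, a male-biased steroid dehydrogenase, stood at 1.79, 59.6 and 128 CPM in RYGB and 94.3, 159 and 373 CPM in WM and did not pass (log2 fold change -1.80 ± 0.49, adjusted p = 0.0553). It passed without RYGB 19, which held the 1.79 CPM, or without RYGB 28 (adjusted p = 0.032 and 0.0248).

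Genes of the circadian clock moved on both of its arms. The activators Arntl (BMAL1) and Clock rose, and the repressors Per1, Per2, Bhlhe40 and Bhlhe41 and the BMAL1 inhibitor Ciart fell. Means in RYGB, WM and Sham were 8.95, 1.2 and 4.9 CPM for Arntl and 41.3, 21.9 and 54.7 CPM for Clock. They were 4.3, 11.2 and 4.82 CPM for Per1 and 6.68, 25.6 and 11.8 CPM for Per2. For Bhlhe40 they were 29.5, 55.9 and 53.5 CPM, for Bhlhe41 2.42, 11.9 and 1.67 CPM and for Ciart 0.74, 6.97 and 1.32 CPM. Differences from Sham were not tested. Of 15 tested clock activators and outputs, 2 rose and 1 fell (20.0% called), with a list median of -0.50 and 12 at an unadjusted p under 0.05. Of 13 tested clock repressors, 0 rose and 4 fell (30.8% called), with a list median of -0.52. Without RYGB 18 and RYGB 19, 3 of the former list were higher and 4 lower, and 5 of the latter were lower.

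The promoters of Ciart, Per1 and Bhlhe41 are shown because BMAL1 and CLOCK are known to bind the E-box CACGTG. All 3 called-lower clock genes with an entry in the RefSeq promoter table held CACGTG in the 250 bases before at least 1 start. These 3 of the 5 are the ones shown, and for Per1 only a window that holds the letters is shown. Arntl and Clock, the called-higher clock genes, held none. CACGTG occurs in 6.02% of the 32851 windows. That is a share of single windows, whereas a gene counted if any of its windows held the letters, so the shares are not alike. CACGTG reads alike on both strands and is in capitals, 5′ to 3′. The windows (GRCm38.p6) are chr3:95882229-95882478, minus strand, for Ciart, chr11:69098699-69098948, plus strand, for Per1 and chr6:145865421-145865670, minus strand, for Bhlhe41. Ciart holds CACGTG with first bases 116, 58 and 44 bases before its start, Per1 at 166 and Bhlhe41 at 153. The D-box letters TTATGTAA or TTACGTAA and the cyclic AMP element TGACGTCA, which occur in 0.931% and 1.55% of the windows, were in none of the 3.
Ciart: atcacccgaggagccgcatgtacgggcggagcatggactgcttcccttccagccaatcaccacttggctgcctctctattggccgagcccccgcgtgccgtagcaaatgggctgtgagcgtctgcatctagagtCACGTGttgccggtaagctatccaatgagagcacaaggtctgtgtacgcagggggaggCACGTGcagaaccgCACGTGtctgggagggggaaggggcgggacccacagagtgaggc
Per1: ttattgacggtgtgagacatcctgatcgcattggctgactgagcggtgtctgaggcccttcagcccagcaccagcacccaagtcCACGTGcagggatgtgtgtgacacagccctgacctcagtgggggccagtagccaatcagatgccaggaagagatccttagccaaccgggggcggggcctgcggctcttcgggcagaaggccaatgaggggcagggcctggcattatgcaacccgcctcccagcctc
Bhlhe41: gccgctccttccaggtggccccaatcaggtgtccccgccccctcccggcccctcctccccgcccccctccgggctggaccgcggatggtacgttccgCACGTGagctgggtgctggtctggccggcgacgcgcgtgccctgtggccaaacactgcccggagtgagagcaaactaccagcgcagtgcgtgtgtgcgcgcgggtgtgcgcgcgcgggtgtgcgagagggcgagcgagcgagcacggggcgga

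Arntl stood at 1.12, 8.09 and 21.3 CPM in RYGB and 0.208, 1.11 and 2.85 CPM in WM (log2 fold change 2.89 ± 0.51, adjusted p = 0.00138), beside 4.90 ± 2.34 CPM in Sham. The RYGB level exceeded every WM library in 6 libraries. The exceptions were RYGB 18 at 1.12 CPM and RYGB 19 at 1.79 CPM, the RYGB libraries with the most acinar transcripts. Clock, its partner, stood at 20.0, 47.1 and 56.1 CPM against 7.71, 21.8 and 35.6 CPM (log2 fold change 0.91 ± 0.23, adjusted p = 0.037). The call of Clock held only when WM 7, WM 9, WM 25, RYGB 18, RYGB 19 or RYGB 29 was left out (adjusted p = 0.0516 to 0.0955 otherwise) and was lost under scaling by library totals (adjusted p = 0.138).

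On the repressor side, Ciart stood at 0, 0.331 and 3.26 CPM in RYGB and 2.02, 6.05 and 12.1 CPM in WM (log2 fold change -3.22 ± 0.72, adjusted p = 0.0143). Bhlhe41 (DEC2) stood at 0.314, 1.26 and 8.06 CPM against 5.01, 12.4 and 19.0 CPM (log2 fold change -2.29 ± 0.51, adjusted p = 0.0127), and Per2 at 3.48, 6.05 and 13.5 CPM against 9.75, 23.5 and 46.8 CPM (log2 fold change -1.94 ± 0.37, adjusted p = 0.0031). In each of the 3, 7 RYGB libraries lay below all WM libraries, and the exception was RYGB 19, without which the value of Ciart was -4.15. Per1 stood at 0.993, 3.05 and 10.3 CPM against 5.86, 12.0 and 18.3 CPM (log2 fold change -1.38 ± 0.36, adjusted p = 0.0467). The call of Per1 held only when WM 7, WM 13, WM 30, RYGB 18 or RYGB 19 was left out (adjusted p = 0.0588 to 0.0905 otherwise). Bhlhe40 (DEC1) fell by 0.92 ± 0.22 on the log2 scale (adjusted p = 0.0235) and lost its call without any 1 of WM 27, WM 30, RYGB 10, RYGB 15, RYGB 22 or RYGB 28 (adjusted p = 0.0524 to 0.0625).

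Dbp, a clock output factor, did not pass with all libraries (log2 fold change -1.80 ± 0.53, adjusted p = 0.0889). It stood at 3.71 to 29.6 CPM in 6 RYGB libraries, at 80.2 CPM in RYGB 18 and 100 CPM in RYGB 19, and at 74.6 to 146 CPM in WM. Without RYGB 18 and RYGB 19, Dbp had a log2 fold change of -3.09 (adjusted p = 0.000316), and Per3 of -2.63, Tef of -1.87 and Npas2, a paralog of Clock, of 3.22 (adjusted p = 0.00347, 0.00255 and 0.00519). With them these 3 had adjusted p = 0.0522, 0.094 and 0.052. Arntl moved from 2.89 to 3.25, Ciart from -3.22 to -5.05, Bhlhe41 from -2.29 to -3.43 and Per1 from -1.38 to -2.12 on the log2 scale when both libraries were left out, and all 4 passed. The part of the acinar transcripts in these values was not tested.

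**Figure D4:**
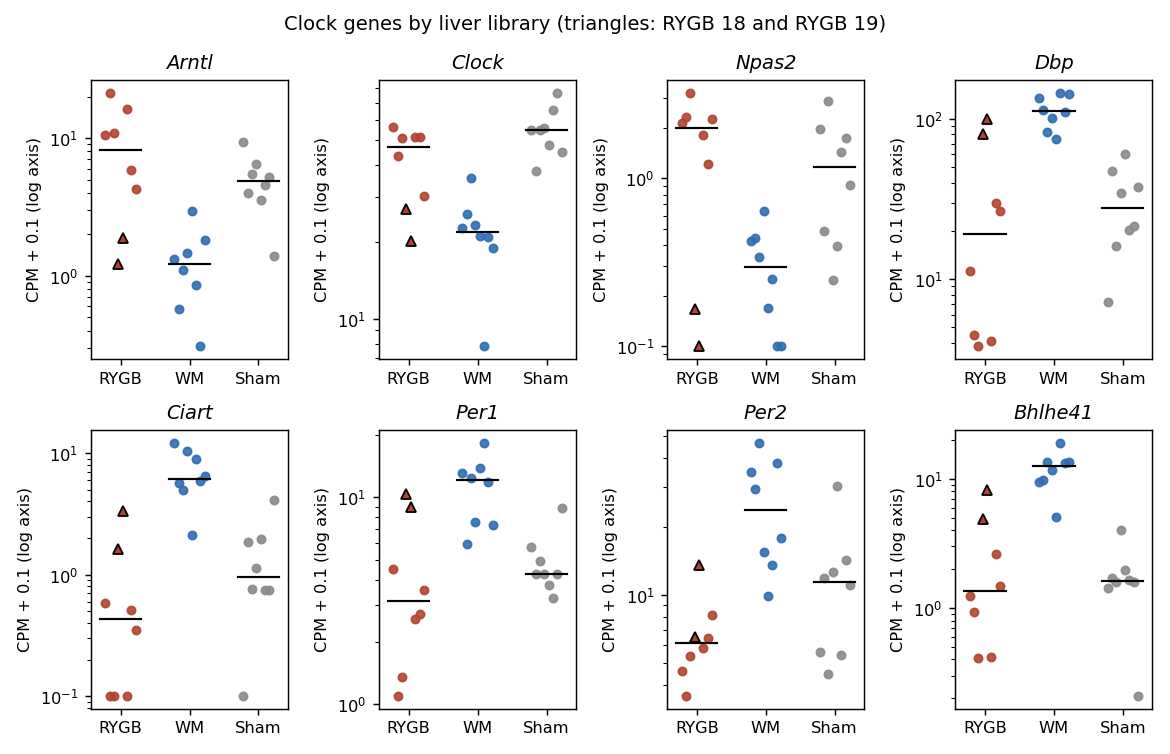
Levels of 8 clock genes in each liver library, as CPM plus 0.1 on log axes that do not start at 0, so that a library with no count is drawn at 0.1. Points are libraries, 8 a group, black lines are medians and triangles are RYGB 18 and RYGB 19. Both triangles lie within the range of the WM points for Arntl, Clock, Npas2, Dbp and Per1. For Ciart, Per2 and Bhlhe41 only the triangle of RYGB 19 does.

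Of 26 tested heat shock chaperones, 0 rose and 3 fell (11.5% called), with a list median of -0.04. Hspa1b, the inducible HSP70, stood at 1.82, 5.17 and 8.07 CPM in RYGB and 15.8, 32.1 and 65.9 CPM in WM (log2 fold change -2.85 ± 0.54, adjusted p = 0.0031), beside 6.29 ± 10.8 CPM in Sham. The RYGB and WM libraries did not overlap. Its near-identical copy Hspa1a stood at 0 to 0.821 CPM against 0.598 to 2.59 CPM and did not pass (log2 fold change -2.17 ± 0.70, adjusted p = 0.146), and reads of the copies may have been counted for either.

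The Hspa1b promoter is shown because heat shock factor is known to bind repeats of GAA and its reverse. In the 250 bases before the start (GRCm38.p6, chr17:34959239-34959488, minus strand, 5′ to 3′) the core GAANNTTC occurs once, in capitals, first base 104 bases before the start. GAANNTTC, which reads alike on both strands, occurs in 6.69% of the 32851 windows, and it was in none of the windows of Dnajb1 and Bag3.
Hspa1b: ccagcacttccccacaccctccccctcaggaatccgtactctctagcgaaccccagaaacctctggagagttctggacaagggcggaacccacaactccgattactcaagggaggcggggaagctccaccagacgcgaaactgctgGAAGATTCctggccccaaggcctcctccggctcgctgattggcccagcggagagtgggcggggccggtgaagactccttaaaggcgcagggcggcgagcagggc

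Dnajb1, the HSP40 partner of HSP70, fell by 0.89 ± 0.24 on the log2 scale (adjusted p = 0.0475), and Bag3, a co-chaperone, fell by 0.84 ± 0.22 (adjusted p = 0.0432). Both calls were fragile. That of Dnajb1 held only when WM 7, WM 9 or RYGB 22 was left out (adjusted p = 0.0523 to 0.123 otherwise) and that of Bag3 only when WM 7, WM 20, WM 30 or RYGB 18 was (adjusted p = 0.0502 to 0.0926 otherwise). In the endoplasmic reticulum, Dnajb9 was the 1 called gene of 24 in the unfolded protein response (list median 0.03, 14 above 0) and fell by 1.36 ± 0.33 on the log2 scale (adjusted p = 0.0285), a call lost without any 1 of WM 1, WM 27, RYGB 10, RYGB 15, RYGB 18, RYGB 19, RYGB 28 or RYGB 29 (adjusted p = 0.0533 to 0.0973). None of 17 tested genes of the integrated stress response passed in edgeR or DESeq2, and 3 of them had an unadjusted p under 0.05.

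Among immediate early genes 3 of 29 rose and 0 fell (10.3% called). Egr1, a zinc finger factor, stood at 11.4, 22.4 and 137 CPM in RYGB and 4.91, 9.64 and 18.0 CPM in WM (log2 fold change 1.88 ± 0.40, adjusted p = 0.00901), and 5 RYGB libraries exceeded all WM libraries. The 137 CPM belonged to RYGB 18, a library with acinar transcripts, the next highest being 45.1 CPM, and without RYGB 18 the log2 fold change was 1.17 (adjusted p = 0.0328). Ier5 rose by 0.76 ± 0.19 (adjusted p = 0.0285), lost without any 1 of WM 1, WM 7, RYGB 10, RYGB 11 or RYGB 29 (adjusted p = 0.057 to 0.0747). Btg2, an antiproliferative factor, rose by 0.74 ± 0.19 (adjusted p = 0.0414), a call that held only when WM 9, WM 13, WM 27 or RYGB 28 was left out (adjusted p = 0.0503 to 0.0895 otherwise).

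In fuel metabolism, Igfbp1, a fasting- and insulin-sensitive binding protein of insulin-like growth factors, stood at 21.9, 58.6 and 258 CPM in RYGB and 13.0, 20.3 and 36.0 CPM in WM (log2 fold change 2.12 ± 0.36, adjusted p = 0.00103). All WM libraries were exceeded by 7 RYGB libraries. Igfbp1 and the growth hormone effector Stat5b (0.73 ± 0.16, adjusted p = 0.00906) were the 2 risen genes of 19 in the growth hormone and IGF axis, none of which fell. Igfbp1 is also the 1 that rose among 25 glucocorticoid-induced genes, where Per1 fell.

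Of 40 genes of glucose metabolism and insulin signalling, 1 rose (Igfbp1) and 2 fell, with a list median of 0.01. Pfkfb3, which makes the activator of phosphofructokinase, stood at 1.71, 2.47 and 4.95 CPM in RYGB and 2.3, 7.2 and 15.0 CPM in WM (log2 fold change -1.63 ± 0.35, adjusted p = 0.00882). Gys2, liver glycogen synthase, stood at 24.1, 37.6 and 80.0 CPM against 44.6, 75.7 and 129 CPM (log2 fold change -0.996 ± 0.23, adjusted p = 0.0202), and its call was lost without WM 30 or RYGB 10 (adjusted p = 0.0564 to 0.057). Pck1, the gluconeogenic carboxykinase, had a log2 fold change of 0.18 ± 0.26 (adjusted p = 0.893).

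Of 30 hepatokines, secreted proteins of the liver, 1 rose and 1 fell. Fgl1, fibrinogen-like 1, stood at 375, 708 and 1210 CPM in RYGB and 108, 229 and 576 CPM in WM (log2 fold change 1.58 ± 0.29, adjusted p = 0.00281). Enho, which encodes adropin, fell by 1.15 ± 0.30 on the log2 scale (adjusted p = 0.0475), a call that held only when WM 7, WM 9, WM 13 or RYGB 15 was left out (adjusted p = 0.0504 to 0.152 otherwise). Both groups lay above the 2.82 ± 0.903 CPM of Sham for Enho, at means of 21.5 ± 10.5 CPM in RYGB and 48.0 ± 27.1 CPM in WM (n = 8 each). Fgf21 had a log2 fold change of 0.36 ± 0.41 (adjusted p = 0.851) and follistatin (Fst) of -0.85 ± 0.47 (adjusted p = 0.528).

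Of 34 genes of methionine, one-carbon and taurine metabolism 3 rose and 0 fell, with a list median of 0.07. Bhmt, which remethylates homocysteine with betaine, stood at 931, 1110 and 1310 CPM in RYGB and 262, 561 and 736 CPM in WM, without overlap (log2 fold change 1.13 ± 0.21, adjusted p = 0.00264). Cth, cystathionine gamma-lyase, rose by 0.93 ± 0.22 on the log2 scale (adjusted p = 0.0235), lost without any 1 of WM 1, RYGB 10 or RYGB 11 (adjusted p = 0.0509 to 0.0612). In amino acid breakdown and the urea cycle 1 of 51 genes passed (1.96%, near the 1.49% of all tested genes). It was Acmsd, which steers tryptophan carbon away from NAD synthesis, at 14.3, 22.9 and 34.8 CPM against 3.6, 6.91 and 14.9 CPM (log2 fold change 1.56 ± 0.24, adjusted p = 0.00042).

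Of 27 genes of retinoid and vitamin handling, 3 rose and 0 fell. Rdh11, a retinal reductase, stood at 54.6, 77.8 and 116 CPM in RYGB and 21.9, 37.1 and 55.4 CPM in WM (log2 fold change 1.15 ± 0.20, adjusted p = 0.00103), and Aldh1a7 at 157, 232 and 260 CPM against 75.1, 149 and 154 CPM without overlap. Of 21 markers of quiescent stellate cells 1 rose (4.76%), and of 51 matrix genes 1 rose, Col15a1 (1.96%, against 1.49% of all tested genes). Its log2 fold change was 1.39 ± 0.36 (adjusted p = 0.0423). The call was lost without any 1 of WM 1, WM 7, WM 13, WM 20, WM 30, RYGB 11, RYGB 18, RYGB 19 or RYGB 29 (adjusted p = 0.0584 to 0.115).

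Interferon genes gave 2 lower calls of 47, Igtp and Gbp3, both guanosine triphosphatases induced by interferon gamma, with a list median of -0.65. Both calls rested on 1 library, WM 13, and the list median was not taken without it. The summed interferon genes had a median of 1240 CPM in RYGB and 1220 CPM in WM. WM 13 held 599 CPM of Igtp, against 11.1 to 59.3 CPM in the other 7 WM libraries and 11.5 to 27.4 CPM in RYGB. Without WM 13 Igtp had a log2 fold change of -0.48 and Gbp3 of -0.99 (adjusted p = 0.547 and 0.152), against -2.37 and -1.90 with it (adjusted p = 0.0394 and 0.0255). The call of Gbp3 was also lost without RYGB 11 (adjusted p = 0.0505), and that of Igtp without any 1 of RYGB 10, RYGB 11, RYGB 15, RYGB 18, RYGB 22, RYGB 28 or RYGB 29 (adjusted p from 0.0592).

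Liver cell type and secretory markers changed in few members. Of 29 periportal hepatocyte markers 2 rose, E-cadherin (Cdh1) at 18.3, 48.5 and 64.0 CPM against 12.4, 18.4 and 25.3 CPM (log2 fold change 1.30 ± 0.21, adjusted p = 0.000577), and Etnppl, a phospholyase, at 0.84 ± 0.20 (adjusted p = 0.0198), lost without WM 1 or RYGB 15 (adjusted p = 0.0523 to 0.0592). Of 30 pericentral markers 1 rose, the amino acid transporter Slc1a4 (1.26 ± 0.28, adjusted p = 0.0143, and 0.0528 with only RYGB and WM libraries fitted). Of 44 genes of complement and coagulation 2 rose (4.55%), Cfd and complement C5 (Hc, 0.68 ± 0.16, adjusted p = 0.0235), the latter lost without any 1 of WM 7, RYGB 10 or RYGB 22 (adjusted p = 0.0527 to 0.0574). Of 42 acute phase proteins 1 rose (2.38%, against 1.49% of all tested genes). It was Orm3, an orosomucoid with close copies, at 3.69, 7.39 and 15.2 CPM against 0.277, 0.965 and 5.66 CPM (log2 fold change 2.15 ± 0.42, adjusted p = 0.0041).

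The 2 calls of 35 markers of recruited macrophages (5.71%) were Lpl and Fabp4. The 1 call of 36 endothelial markers (2.78%) was Fabp4, and the 1 call of 25 Kupffer cell markers (4.0%) was Id3. All are described above, and over all tested genes 1.49% were called. Tff3, a trefoil peptide of mucous cells, was the 1 call of 5 tested markers of intestinal epithelium, at 2.56, 11.9 and 28.9 CPM in RYGB and 0.363, 1.89 and 4.04 CPM in WM (log2 fold change 2.77 ± 0.53, adjusted p = 0.00368). The 7 markers of this list with counts summed to 317 to 624 CPM in RYGB and 387 to 747 CPM in WM. In Sham, where Tff3 averaged 0.363 CPM, they summed to 1910 to 5070 CPM. Tff3 was a small part of these sums, so they cannot show whether other intestinal transcripts went with it. Spink1, a trypsin inhibitor of acinar cells, was called higher (5.13 ± 1.14, adjusted p = 0.0127), with 9.86 CPM in RYGB 18, 10.3 CPM in RYGB 19 and at most 0.88 CPM in the other RYGB libraries. It did not pass without those 2 libraries (1.98, adjusted p = 0.419).

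In several large lists no gene passed edgeR's test at an adjusted p under 0.05. None of 77 nuclear genes of oxidative phosphorylation did (4 at an unadjusted p under 0.05), none of 82 cytosolic ribosomal proteins (5), none of 75 mitochondrial ribosomal proteins (5), none of 41 proteasome subunits (4) and none of 22 lymphocyte and plasma cell markers (1), and DESeq2 called 0 in each of these 5 lists. None of 32 NRF2 targets passed edgeR's test (10 at an unadjusted p under 0.05), against 4 higher in DESeq2. None of 41 cell cycle genes passed edgeR's test (7 at an unadjusted p under 0.05), against 2 lower in DESeq2, and none of 22 cholangiocyte and progenitor markers (4), against 1 higher and 1 lower in DESeq2.

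**Figure D5:**
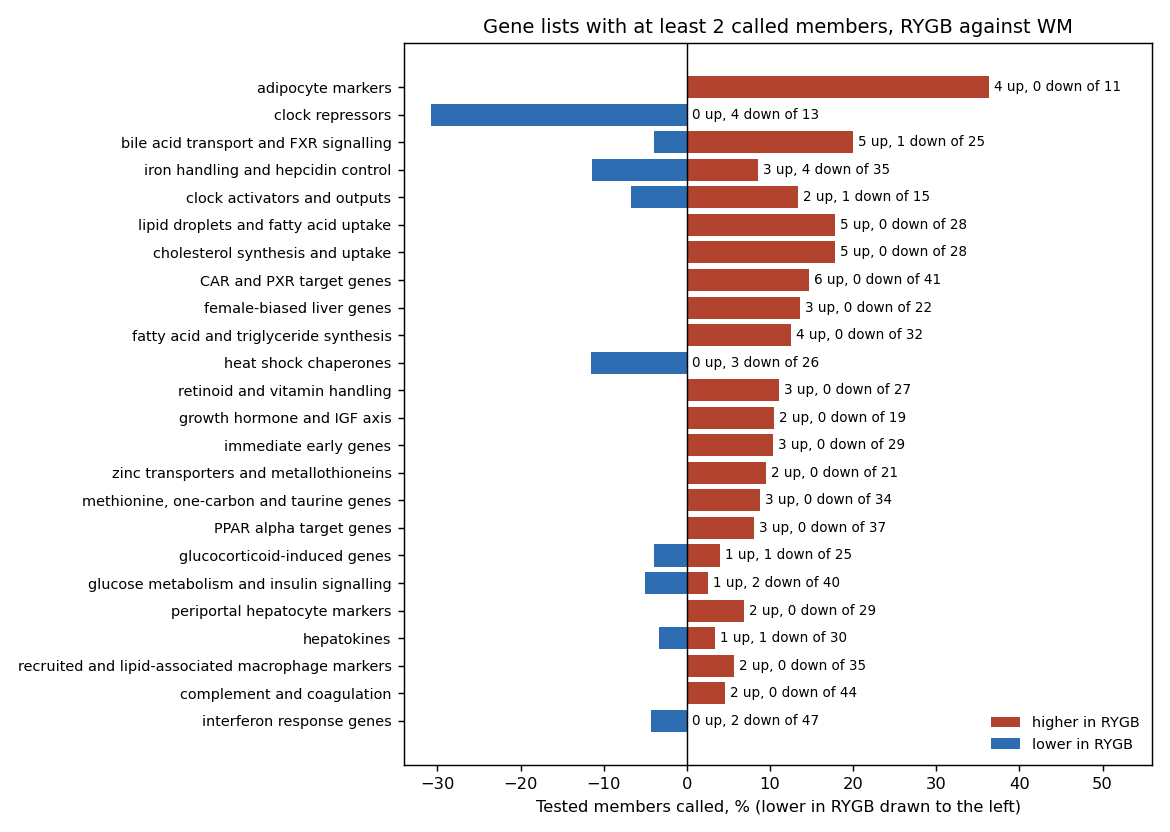
Share of tested members called higher in RYGB (red, to the right) and lower in RYGB (blue, to the left) for each gene list with at least 2 called members, in percent of tested members, with the counts written beside the bars. Over all tested genes 1.06% were called higher and 0.434% lower.

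Genes outside the lists gave some of the smallest p-values. Of those that follow, Tubb2a, Atp6v0d2, Asap2 and Dact1 were named by the size of their change, and the others were chosen after their values were seen. Tubb2a, a beta-tubulin, stood at 70.3, 151 and 220 CPM in RYGB and 24.9, 33.9 and 50.2 CPM in WM (log2 fold change 2.15 ± 0.20, adjusted p = 1.91e-07), without overlap, beside 216 ± 33.1 CPM in Sham. Dhrs9, a short-chain dehydrogenase active on retinoids and steroids, stood at 1.02, 3.25 and 4.54 CPM against 0.139, 0.301 and 0.545 CPM (log2 fold change 3.29 ± 0.35, adjusted p = 1.7e-06). Lhx6, a LIM homeobox factor, stood at 3.45, 5.01 and 6.25 CPM against 0.0747, 0.555 and 1.21 CPM (log2 fold change 3.10 ± 0.34, adjusted p = 1.71e-06). All 3 were free of overlap, and Dhrs9 and Lhx6 rested on 40 and 72 counts over the WM libraries.

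Solute carriers were among them. Slc41a2, a magnesium transporter, stood at 32.8, 58.7 and 106 CPM in RYGB and 9.04, 15.2 and 27.9 CPM in WM (log2 fold change 1.79 ± 0.25, adjusted p = 6.44e-05), and Slc37a1, a sugar-phosphate exchanger, at 2.64, 4.26 and 6.44 CPM against 0.081, 0.672 and 1.36 CPM (log2 fold change 2.72 ± 0.37, adjusted p = 6.44e-05). Neither overlapped. Slc45a3 rose by 1.18 ± 0.20 (adjusted p = 0.00103). Atp6v0d2, a subunit of the vacuolar proton pump, stood at 2.81, 7.66 and 10.8 CPM against 0, 1.52 and 2.86 CPM (log2 fold change 2.39 ± 0.50, adjusted p = 0.00764), and Asap2, a regulator of small GTPases, at 2.99, 8.14 and 18.0 CPM against 0.969, 1.61 and 4.25 CPM (log2 fold change 2.17 ± 0.32, adjusted p = 0.000176).

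Among the genes chosen after their values were seen, Cldn1, a tight junction claudin, rose by 1.59 ± 0.33 (adjusted p = 0.00764), the adhesion receptors Cxadr by 0.92 ± 0.20 (adjusted p = 0.0112, and 0.0576 with only RYGB and WM libraries fitted) and Nectin1 by 1.01 ± 0.22 (adjusted p = 0.0118), and cingulin (Cgn) by 0.76 ± 0.18 (adjusted p = 0.0233). Cldn1 exceeded all WM libraries in 7 RYGB libraries. The call of Nectin1 was lost without RYGB 18 and RYGB 19 together (adjusted p = 0.0779) and that of Cgn without any 1 of WM 1, WM 27, RYGB 15 or RYGB 29 (adjusted p = 0.0517 to 0.0625).

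Among lower genes, Dio1, the liver deiodinase that activates thyroid hormone, stood at 46.0, 66.4 and 96.7 CPM in RYGB and 98.6, 137 and 253 CPM in WM, without overlap (log2 fold change -1.09 ± 0.20, adjusted p = 0.00281), beside 208 ± 50.0 CPM in Sham. Kcnk10, a potassium leak channel, stood at 0, 0.368 and 1.45 CPM against 2.73, 4.64 and 9.16 CPM, also without overlap (log2 fold change -3.42 ± 0.49, adjusted p = 0.000108). Dact1, an antagonist of Wnt signalling, stood at 1.01, 2.49 and 5.3 CPM against 2.12, 8.86 and 14.5 CPM (log2 fold change -1.64 ± 0.32, adjusted p = 0.00432). Upp2, a uridine phosphorylase, fell by 1.16 ± 0.28 on the log2 scale (adjusted p = 0.0238), lost without any 1 of RYGB 10, RYGB 15, RYGB 22 or RYGB 29 (adjusted p = 0.0531 to 0.0594). Creb3l2 (-1.05 ± 0.26, adjusted p = 0.0315) and Ficd (-1.14 ± 0.30, adjusted p = 0.0486) fell as well. The call of Creb3l2 was lost without any 1 of WM 1, WM 20, WM 27, RYGB 10, RYGB 15, RYGB 18, RYGB 19, RYGB 28 or RYGB 29 (adjusted p = 0.0519 to 0.0988), and that of Ficd held only when WM 13, WM 20, WM 25 or RYGB 29 was left out (adjusted p = 0.0502 to 0.136 otherwise).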

How the data were processed

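Liver RNA was frozen, extracted and made into 3′ libraries read for 50 bp, per the labels' protocols. The authors deposited whole-number counts for 14995 genes and a normalized signal, counts divided by a size factor per library. Every test but 1 alternative used the deposited counts. R 4.1.2 and DESeq2 1.34 are named in the submitters' processing notes. The sources used here do not name aligner, counting program, strand setting or build. Ensembl IDs were named through GENCODE M21 (14959 matched). Deposited coordinates were not used.

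In R 4.3.3, edgeR 4.0.16 fitted the 24 libraries together (filterByExpr, TMM, quasi-likelihood F-test of RYGB minus WM, Benjamini-Hochberg over 13121 genes). The standard error is the log2 fold change over the root of F. The procedure was tested on simulated data. Sums and shares per library were tested by exact permutation, two-sided, 8 against 8.

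The groups, gene lists and tests were chosen with earlier results of these data known. Named genes were the 10 called genes a direction with the largest fold change, among those averaging at least 5 CPM in either group with at least 7 of 8 RYGB libraries beyond the WM median and no predicted-gene, clone or Riken symbol, the 3 called members with the smallest p of each list with at least 2 calls, and 18 genes set by name. All others, 4 of the 11 library sums (adipocyte, interferon, neutrophil, intestinal), the restriction of the acinar sum to untested genes, the letters GGCGCC and the promoters printed were chosen after values were seen. Promoters are RefSeq windows (GRCm38.p6). The values of a few genes these rules name are not reported here.

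Alternatives were DESeq2 1.42.0, RLE scaling, library totals, no low-count filter, 1 CPM in 8 libraries, RYGB and WM libraries only, limma-voom with quality weights, limma-trend (limma 3.58.1) on log2 of the deposited normalized signal plus 1, an adjusted p under 0.01, each library left out in turn, and RYGB 18 and RYGB 19 left out, alone or with Sham 17 and WM 25.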

Additional observations from a re-analysis of the deposited data

Results flagged for a closer look

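In 252 groups of 8 libraries, the gap between an end library and its neighbour was set against the group's range, on log2 of CPM plus 0.5 for gene levels and sums. In 13 the gap passed Dixon's 95% value, and chance flags about 1 in 20 groups. In RYGB, Cfd was 0.314 CPM in RYGB 15 (others 13.7 to 70.4 CPM), Plin5 was 148 CPM in RYGB 10 (others 71.3 to 92.2 CPM) and Elovl5 was 1910 CPM in RYGB 10 (others 769 to 1120 CPM). Fgf21 was 0.132 CPM in RYGB 18 (others 1.01 to 2.1 CPM), Cyp2b10 was 0.512 CPM in RYGB 19 (others at most 0.0585 CPM) and Ficd was 0.827 CPM in RYGB 11 (others 2.77 to 6.82 CPM).

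In WM, WM 13 stood apart for Gbp3 at 30.1 CPM (others 2.21 to 5.5 CPM), for Igtp at 599 CPM (others 11.1 to 59.3 CPM) and for the interferon sum at 7291 CPM (others 918 to 1560 CPM). WM 25 stood apart for Clock at 7.71 CPM (others 18.9 to 35.6 CPM), Btg2 at 2.42 CPM (others 4.18 to 6.34 CPM), Cyp8b1 at 1130 CPM (others 91.0 to 245 CPM) and Fst at 0.0756 CPM (others 0.78 to 2.09 CPM).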

How the results depend on the processing

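Of the 196 called genes, 89 passed in all 27 alternatives (73 higher, 16 lower), 98 passed in all that kept the 0.05 threshold, and none reversed. Counts moved by more than 1.5 times under DESeq2 (223 higher, 134 lower), among RYGB and WM libraries only (27 lower), under limma-voom (88 lower) and at an adjusted p under 0.01 (78 higher, 17 lower). So did the lower count without WM 1 (36), WM 27 (30), RYGB 10 (29) or RYGB 15 (36). The cause was not tested, other than the stricter threshold itself. DESeq2 shared 139 of the 139 higher and 55 of the 57 lower calls. Leaving out 1 library gave 107 to 180 higher and 29 to 77 lower genes. Reversals of sign occurred only in named genes that had not passed and did not pass then. Cyp7a1 was -0.0472 on the log2 scale under limma-voom, -0.24 without RYGB 19, -0.31 without RYGB 18 and RYGB 19 and -0.44 without these, Sham 17 and WM 25. For Cidec the 3 settings other than RYGB 19 alone gave -0.00617, -0.0557 and -0.0302, and for Cyp2b10 all 4 gave -0.28, -1.49, -1.37 and -1.51. Pck1 was -0.0569 and -0.13 without the 2 and the 4 libraries, and Adipoq was 0.25 under limma-trend. Leaving out 1 library gave -0.24 to 0.309 for Cyp7a1 and -1.49 to 1.27 for Cyp2b10. Depth limits Cyp2b10 most, with 9 counts over the RYGB and 5 over the WM libraries. No paired analysis was possible because the groups share no animal numbers.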
